A study of Rattus norvegicus with 21 samples.

Results

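Stac3, Car3, Nrep and Dhrs7l1 are 4 of the 14217 rat genes that had a probe set of their own on the expression arrays used here, and they are described across all 7 dose groups of a liver toxicity series. The members are the probe sets whose platform gene symbol is exactly one of these names, which gave 5 probe sets: 1395403_at for Stac3, 1367896_at and 1386977_at for Car3, 1371412_a_at for Nrep and 1397205_at for Dhrs7l1. The genes were chosen from comparisons of piperonyl butoxide (PBO, an insecticide synergist) doses, and their measured signals at 1500 mg/kg lay far below the controls. For that reason their PBO values at every dose, and the dose at which each fell, are a description without a test. Their values in the study of dammar resin (DAM, a plant resin used as a food additive) did not enter the choice and were tested. Liver RNA of 21 male rats was measured with 1 array per animal and 3 animals per group, labelled as biological replicates. In the PBO study, 12 Sprague-Dawley rats received 0.5% methyl cellulose or 500, 1000 or 1500 mg/kg of PBO by mouth for 7 days. In the DAM study, 9 Fischer344 rats ate a basal diet, or diet with 2% or 5% DAM, which the labels equate with 800 and 2000 mg/kg, for 28 days. Strain, route, duration and storage of the liver (RNAlater or liquid nitrogen) all differed between the studies, so that a difference between their controls cannot be told apart from these. The labels state no age.

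The 4 genes belong to unrelated families. Stac3 encodes an adaptor protein with an SH3 domain and a cysteine-rich domain that is known from skeletal muscle, where it couples the calcium channel of the membrane to calcium release inside the cell. Car3 encodes carbonic anhydrase III, a cytosolic enzyme with low hydratase activity that is abundant in muscle, fat and liver and is known in rats to be higher in male than in female liver. Nrep encodes the small protein P311, described in regenerating nerve and in fibroblasts, where it promotes translation of TGF-beta. Dhrs7l1 is named after the short-chain dehydrogenases, the enzyme family that oxidises or reduces steroids, retinoids and carbonyl compounds, and its own substrate is not stated here.

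The promoter letters of the members are shown to let their sequences be compared. In the RefSeq table for the GRCr8 build, Stac3, Nrep and Dhrs7l1 had an entry and Car3 was not matched. Each line gives the 250 bases before the start that the table uses, 5′ to 3′ on the strand of the gene. For Stac3 that start lies within the annotated span of the gene, and for Nrep and Dhrs7l1 the window abuts the end of the span. Capitals mark the matches described next.
Stac3 (chr7:65228225-65228474, plus strand): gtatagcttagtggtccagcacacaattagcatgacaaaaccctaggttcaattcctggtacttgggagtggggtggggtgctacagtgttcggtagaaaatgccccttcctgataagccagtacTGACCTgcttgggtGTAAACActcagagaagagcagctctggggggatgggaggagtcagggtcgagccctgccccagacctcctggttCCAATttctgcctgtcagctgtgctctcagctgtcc
Nrep (chr18:25320743-25320992, minus strand): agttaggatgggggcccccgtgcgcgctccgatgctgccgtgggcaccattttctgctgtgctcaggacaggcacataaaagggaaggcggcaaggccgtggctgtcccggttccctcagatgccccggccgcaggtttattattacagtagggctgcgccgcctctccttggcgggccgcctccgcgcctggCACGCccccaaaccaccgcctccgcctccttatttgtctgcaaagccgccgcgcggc
Dhrs7l1 (chr6:97047900-97048149, minus strand): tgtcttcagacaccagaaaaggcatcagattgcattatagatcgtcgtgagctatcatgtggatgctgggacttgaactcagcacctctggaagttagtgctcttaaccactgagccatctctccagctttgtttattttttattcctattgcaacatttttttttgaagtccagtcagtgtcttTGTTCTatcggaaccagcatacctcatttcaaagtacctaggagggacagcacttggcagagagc
A total of 18 motifs was searched on both strands. In the Stac3 promoter the capitals are TGACCT, the reverse complement of the nuclear receptor core AGGTCA, at 125 to 120 bases before the start, GTAAACA, the reverse complement of the forkhead core TGTTTAC, at 111 to 105, and CCAAT at 36 to 32. These motifs were found in 14.1%, 3.21% and 34% of the 33469 promoters of the table. The only match in the Nrep promoter was CACGC at 57 to 53, the reverse complement of GCGTG, the core bound by the aryl hydrocarbon receptor, which 25.9% of promoters held. Dhrs7l1 matched only TGTTCT, the core of the glucocorticoid receptor site, at 65 to 60, which 17.5% held. No motif was found in more than 1 of the 3 promoters, and TTCNNNGAA, the STAT5 core that 7.67% of promoters held, was in none of them. A match describes the letters of this window and not a bound site.

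Signals are MAS5 values on a linear scale with a common array mean, and changes are differences of log2(signal + 16) with the standard error (SE) of a limma fit over all arrays of a study. With 3 animals in a group, few arrays stand behind each value, and this bounds its precision. Median signals were 94.3 to 114 in the PBO study and 76.0 to 86.2 in the DAM study. PBO 1500 mg/kg replicate 3 stood apart, with a root mean square deviation from its group mean of 0.495 log2 units against 0.276 to 0.368 for the other PBO arrays. The ratio of 3' to 5' Gapdh signal, a measure of RNA integrity, was 1.07 to 1.19 over PBO arrays and 1.52 to 2.01 over DAM arrays. The same ratio for beta-actin was 2.38 to 3.16 over PBO arrays and 5.56 to 9.81 over DAM arrays, and the part of these ratios in the results was not tested. Markers fit the labelled tissue, since 8 hepatocyte genes summed to signals of 226911 to 379724 in the control groups and at the highest doses. All 5 probe sets passed the filter on low signal in both studies, together with 18625 probe sets per fit.

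**Figure D1:**
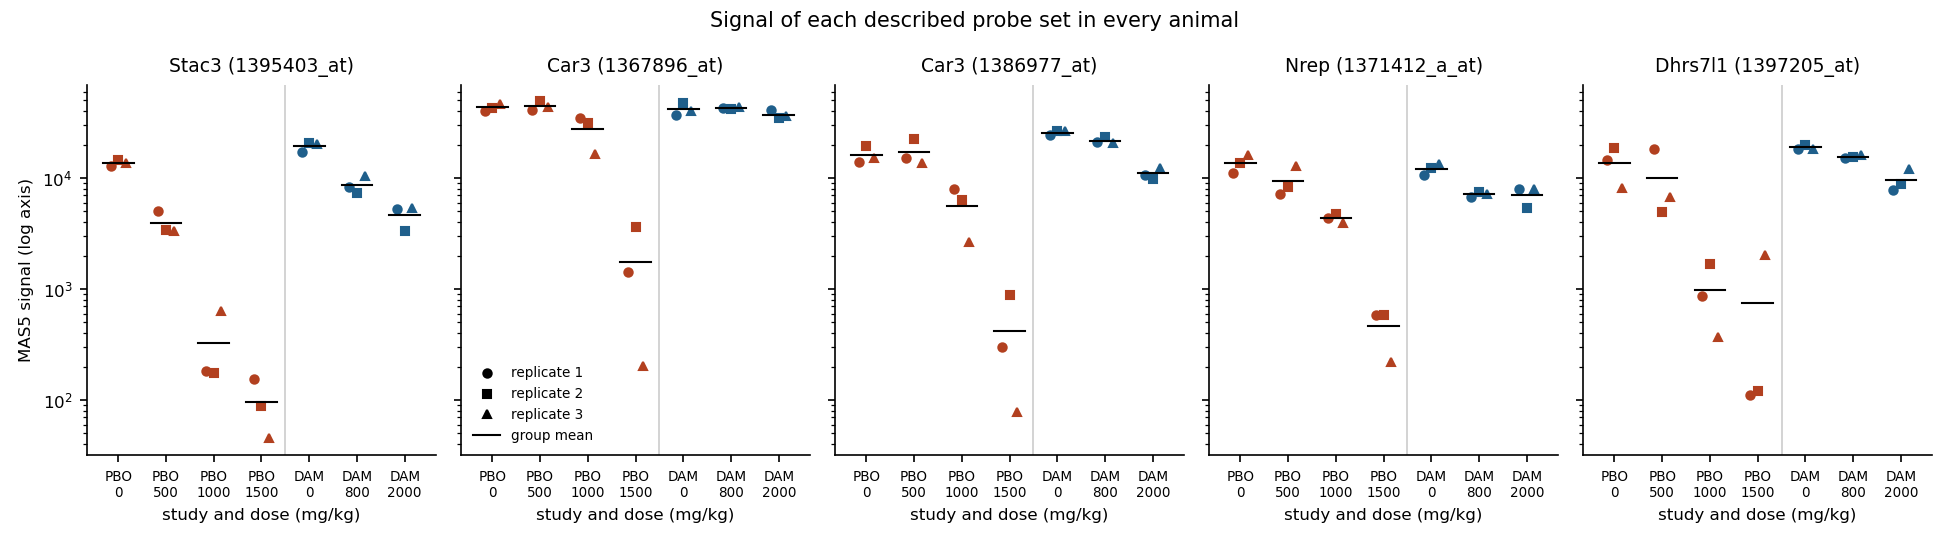
Signal of each probe set (vertical log axis, MAS5 units) in every animal of the 7 dose groups (horizontal axis, mg/kg), with symbols for the replicate numbers and a line for the group mean. Stac3 is already separate from its controls at PBO 500, both Car3 probe sets overlap them there and are lowest by a wide step at PBO 1500, and the DAM groups span a narrower range.

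Stac3 was the first of the 4 genes to be lower in the PBO study and had the lowest mean at 1500 mg/kg. Its signals in replicates 1, 2 and 3 were 12954, 14503 and 13785 in the controls and 5025, 3380 and 3347 at 500 mg/kg. They were 182.6, 176.0 and 626.9 at 1000 mg/kg and 153.7, 88.5 and 45.3 at 1500 mg/kg. No group overlapped its neighbour, so that every animal of a dose lay below every animal of the dose before. The group means were 28.5% ± 6.98, 2.39% ± 1.88 and 0.697% ± 0.397 (SD, n = 3) of the control mean at 500, 1000 and 1500 mg/kg. On the log2 scale the changes from control were -1.83, -5.56 and -7.06 (SE 0.43 each). Of the 18625 probe sets, none had a more negative change at 1500 mg/kg. The largest step lay between 500 and 1000 mg/kg, at -3.73, and the step from 1000 to 1500 mg/kg was -1.50. At 1500 mg/kg Stac3 was dim: replicate 3, at 45.3, lay below the 40th percentile of its array, 62.7, and replicates 1 and 2 lay above the 70.0 and 67.7 of theirs. The change there was -6.49 with a pseudocount of 64 in place of 16. Without PBO 1500 replicate 3 it was -6.69, close to the -6.62 of Dhrs7l1. In replicates 1 and 2 Dhrs7l1 had signals of 111.5 and 121.4, so the rank of Stac3 below Dhrs7l1 rests on replicate 3.

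In the DAM study Stac3 fell at both doses. The signals were 17233, 20597 and 20252 on the basal diet, 8236, 7249 and 10485 at 800 mg/kg and 5233, 3314 and 5376 at 2000 mg/kg. The 3 groups did not overlap. At 800 mg/kg the mean was 44.7% ± 8.57 (SD, n = 3) of the control mean, a change of -1.17 ± 0.17 (limma adjusted p = 0.00226), and at 2000 mg/kg it was 24.0% ± 5.95, a change of -2.09 ± 0.17 (limma adjusted p = 9.86e-06). The step between the doses was -0.91 (limma adjusted p = 0.0238), a call that was lost without DAM 800 replicate 1 (adjusted p = 0.0733) or replicate 3 (adjusted p = 0.0905), with no filter (adjusted p = 0.0506) and without the intensity trend (adjusted p = 0.160). Ordered by mean signal, the groups ran from the DAM control through the PBO control, DAM 800, DAM 2000, PBO 500 and PBO 1000 to PBO 1500. Only DAM 2000 and PBO 500 overlapped among neighbours in that order.

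Car3 overlapped its controls at PBO 500 and was lowest at PBO 1500 by a wide step. With probe set 1367896_at the signals were 40227, 43061 and 46669 in the controls and 41352, 49061 and 43491 at 500 mg/kg. At 1000 mg/kg they were 35018, 31066 and 16537, and at 1500 mg/kg 1428, 3606 and 200.9. The groups at 0 and 500 mg/kg overlapped, every animal at 1000 mg/kg lay below them, and every animal at 1500 mg/kg lay below those. The means at 500, 1000 and 1500 mg/kg were 103% ± 9.19, 63.6% ± 22.5 and 4.03% ± 3.98 (SD, n = 3) of the control mean. The changes from control were 0.04, -0.72 and -5.37 (SE 0.70 each), and the step from 1000 to 1500 mg/kg alone was -4.65. The change at 500 mg/kg was -0.04 after quantile normalization, so that its sign has no meaning. Replicate 3 was the lowest animal at both 1000 and 1500 mg/kg, and without PBO 1500 replicate 3 the change at 1500 mg/kg was -4.24.

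The other Car3 probe set, 1386977_at, followed the same order of doses with a larger difference at 1000 mg/kg. Its signals were 13797, 19593 and 15129 in the controls, 15064, 22486 and 13726 at 500 mg/kg, 7906, 6318 and 2664 at 1000 mg/kg and 297.0, 876.0 and 77.7 at 1500 mg/kg. Again only the groups at 0 and 500 mg/kg overlapped. The means were 106% ± 29.2, 34.8% ± 16.6 and 2.58% ± 2.55 (SD, n = 3) of the control mean, with changes of 0.06, -1.64 and -5.75 (SE 0.61 each). Without PBO 1500 replicate 3 the last change was -4.92.

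The Car3 probe sets disagreed in the DAM study. With 1386977_at the signals were 24290, 26325 and 26359 on the basal diet, 21124, 23291 and 20762 at 800 mg/kg and 10692, 9884 and 12363 at 2000 mg/kg. These groups did not overlap. The change was -0.24 ± 0.08 at 800 mg/kg (limma adjusted p = 0.163, 95% interval -0.42 to -0.06) and -1.23 ± 0.08 at 2000 mg/kg (limma adjusted p = 2.67e-06), where the mean was 42.8% ± 4.93 (SD, n = 3) of control. The step between the doses was -0.99 (limma adjusted p = 2.23e-04).

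With 1367896_at the DAM signals were 36813, 47539 and 40459 on the basal diet, 42662, 41630 and 43880 at 800 mg/kg and 41196, 34614 and 35930 at 2000 mg/kg. Both dosed groups overlapped the controls. The changes were 0.05 ± 0.09 at 800 mg/kg (limma adjusted p = 0.868, 95% interval -0.16 to 0.25) and -0.16 ± 0.09 at 2000 mg/kg (limma adjusted p = 0.316, 95% interval -0.36 to 0.05). After quantile normalization the change at 800 mg/kg was -0.04, and that at 2000 mg/kg was -0.25 and passed the threshold (limma adjusted p = 7.80e-04). The ratio of the signals of both probe sets within an animal was 1.52 to 1.81 in the DAM controls and 2.91 to 3.85 at DAM 2000, which shows that they changed unequally. It was 2.20 to 3.08 in the PBO controls and 4.43 to 6.21 at PBO 1000. The probe set 1367896_at was among the brightest of the array, with 9 to 13 probe sets above it in the DAM controls and 32 to 35 in the PBO controls, and the part of its high level in the smaller change was not tested. By mean signal of 1367896_at all neighbours from PBO 500 down to PBO 1000 overlapped, and only PBO 1500 stood alone. With 1386977_at the DAM control stood alone at the top, DAM 800, PBO 500 and the PBO control overlapped their neighbours, and DAM 2000, PBO 1000 and PBO 1500 followed without overlap.

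Nrep was lower in graded steps. Its PBO signals were 11197, 13761 and 16076 in the controls, 7196, 8275 and 12767 at 500 mg/kg, 4324, 4781 and 3925 at 1000 mg/kg and 577.1, 586.0 and 218.1 at 1500 mg/kg. The animals at 500 mg/kg overlapped the controls through replicate 3, and the higher doses overlapped nothing above them. The means were 68.8% ± 21.6, 31.8% ± 3.13 and 3.37% ± 1.53 (SD, n = 3) of the control mean at 500, 1000 and 1500 mg/kg. The changes from control were -0.57, -1.64 and -4.95 (SE 0.31 each), and the largest step, -3.31, lay between 1000 and 1500 mg/kg.

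In the DAM study Nrep fell at both doses, and the difference between the doses was within its error. The signals were 10643, 12399 and 13404 on the basal diet, 6701, 7482 and 7234 at 800 mg/kg and 7923, 5405 and 7881 at 2000 mg/kg. Both dosed groups lay below the controls and overlapped each other. The changes were -0.76 ± 0.13 at 800 mg/kg (limma adjusted p = 0.00682) and -0.80 ± 0.13 at 2000 mg/kg (limma adjusted p = 0.00193), or 58.8% ± 3.28 and 58.2% ± 11.9 (SD, n = 3) of the control mean. Without the intensity trend the call at 800 mg/kg was lost (adjusted p = 0.0702). The step between the doses was -0.03 (limma adjusted p = 0.951, 95% interval -0.32 to 0.25), and 0.01 after median scaling. By mean signal the order was PBO control, DAM control, PBO 500, DAM 800, DAM 2000, PBO 1000 and PBO 1500, with every neighbour down to DAM 2000 overlapping.

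Dhrs7l1 varied most of the 5 probe sets in the PBO controls and at 500 and 1500 mg/kg, with coefficients of variation of 38.6%, 73.1% and 146%. The signals were 14423, 18689 and 8143 in the controls, 18391, 4930 and 6699 at 500 mg/kg, 856.8, 1690 and 366.5 at 1000 mg/kg and 111.5, 121.4 and 2007 at 1500 mg/kg. The groups at 0 and 500 mg/kg overlapped, both higher doses lay below them, and the groups at 1000 and 1500 mg/kg overlapped because replicate 3 at 1500 mg/kg was the highest of those 6 animals. That animal was the lowest of its group for Stac3, Nrep and both Car3 probe sets. The means were 72.8% ± 53.2, 7.06% ± 4.87 and 5.43% ± 7.94 (SD, n = 3) of the control mean, with changes of -0.62, -3.97 and -5.31 (SE 0.90 each). Without PBO 1500 replicate 3 the change at 1500 mg/kg was -6.62, and the step from 1000 mg/kg was -2.65 in place of -1.34.

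In the DAM study the spread of Dhrs7l1 was narrower and the gene fell at the higher dose. The signals were 18238, 19929 and 18433 on the basal diet, 15125, 15359 and 15971 at 800 mg/kg and 7772, 8805 and 12128 at 2000 mg/kg. The 3 groups did not overlap. The change at 800 mg/kg was -0.28 ± 0.12 and missed the threshold (limma adjusted p = 0.285, 95% interval -0.55 to -0.01), though it passed when only the arrays of both groups were fitted (adjusted p = 0.0416). At 2000 mg/kg it was -1.00 ± 0.12 (limma adjusted p = 2.25e-04), with a mean of 50.7% ± 12.1 (SD, n = 3) of control. The step between the doses was -0.72 (limma adjusted p = 0.0139). That call was lost without DAM 800 replicate 1, 2 or 3 (adjusted p = 0.0529, 0.0556 and 0.0577), without DAM 2000 replicate 2 (adjusted p = 0.0725) and without the intensity trend (adjusted p = 0.132). The probe set of Dhrs7, a gene of similar name, changed by -0.21 at PBO 1500 (limma adjusted p = 0.619) and 0.22 at DAM 2000 (limma adjusted p = 0.298). By mean signal the DAM control came first and apart, DAM 800, PBO control, PBO 500 and DAM 2000 overlapped in turn, and PBO 1000 and PBO 1500 came last and overlapped.

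**Figure D2:**
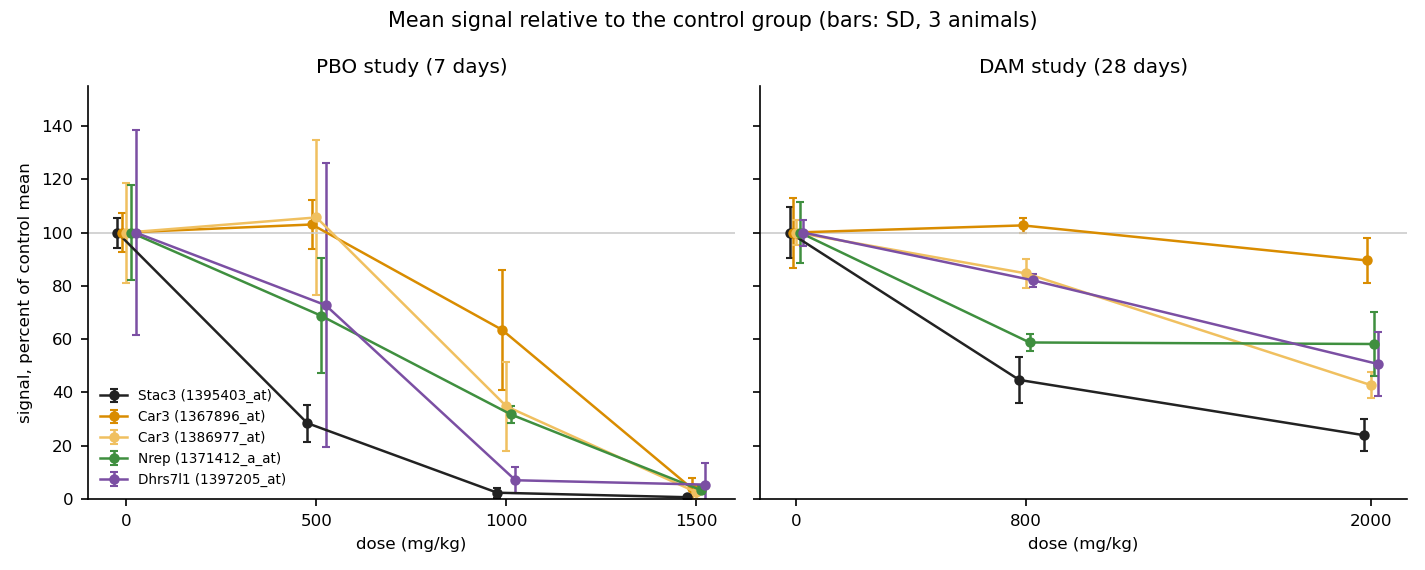
Mean signal of each probe set in percent of the control mean of its study (vertical axis) against dose (horizontal axis, mg/kg), with SD bars of 3 animals that are not drawn below 0. At PBO 500 only Stac3, at 28.5%, lies below every control animal. At DAM 2000 the means run from 24.0% for Stac3 to 89.5% for Car3 1367896_at.

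Side by side, the 5 probe sets differed in the dose at which they left the control range. At PBO 500 all animals lay below all controls for 1 of the 5 (Stac3), and 11.6% of all tested probe sets did so. At PBO 1000 and PBO 1500 this held for 5 of 5, against 15.5% and 19% of all tested probe sets. From PBO 500 to 1000 all 5 were separated (7.04% of all), and from 1000 to 1500 mg/kg 4 of 5 (11.1% of all), with Dhrs7l1 as the exception. The genes were chosen from PBO comparisons, so nothing is read from the PBO counts against those shares. Stac3 and Dhrs7l1 had their largest step between 500 and 1000 mg/kg, and both Car3 probe sets and Nrep between 1000 and 1500 mg/kg. At 1500 mg/kg 0, 2, 3, 5 and 7 of all tested probe sets had a more negative change than Stac3, Car3 1386977_at, Car3 1367896_at, Dhrs7l1 and Nrep. In bulk liver, fewer cells of a type and less RNA per cell cannot be told apart.

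At DAM 800, 2 of the 5 probe sets (Stac3 and Nrep) fell, where 1.62% of all probe sets fell. At DAM 2000, 4 of 5 fell, at least 1 for each of the 4 genes, where 6.11% of all probe sets fell. From 800 to 2000 mg/kg 3 of 5 fell, those of Stac3 and Dhrs7l1 and Car3 1386977_at, where 0.719% of all did. All animals lay below all controls for 4 of 5 at DAM 800 (10.9% of all tested probe sets) and 4 of 5 at DAM 2000 (16.6% of all), the exception being Car3 1367896_at. From DAM 800 to 2000 this held for 4 of 5, all but Nrep, against 9.44% of all. None of the 5 rose in a DAM comparison. All 4 calls at DAM 2000 held under every alternative that was run, with adjusted p between 6.71e-06 and 0.00109 for Stac3, 1.26e-06 and 6.09e-04 for Car3 1386977_at, 0.00109 and 0.0230 for Nrep, and 5.17e-06 and 0.00730 for Dhrs7l1. Scaling every array to a common median moved the median change of all probe sets by 0.12 at PBO 1500 and 0.10 at DAM 2000. Under it the calls split into 1951 higher and 1146 lower in place of 1504 and 1724 at PBO 1500, and into 1669 and 588 in place of 1158 and 1138 at DAM 2000. At DAM 800 the split was 456 and 166 in place of 403 and 302. Doses, routes and durations of PBO and DAM do not match, so the orders of levels over both studies are descriptions, and no test between the compounds was made.

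**Figure D3:**
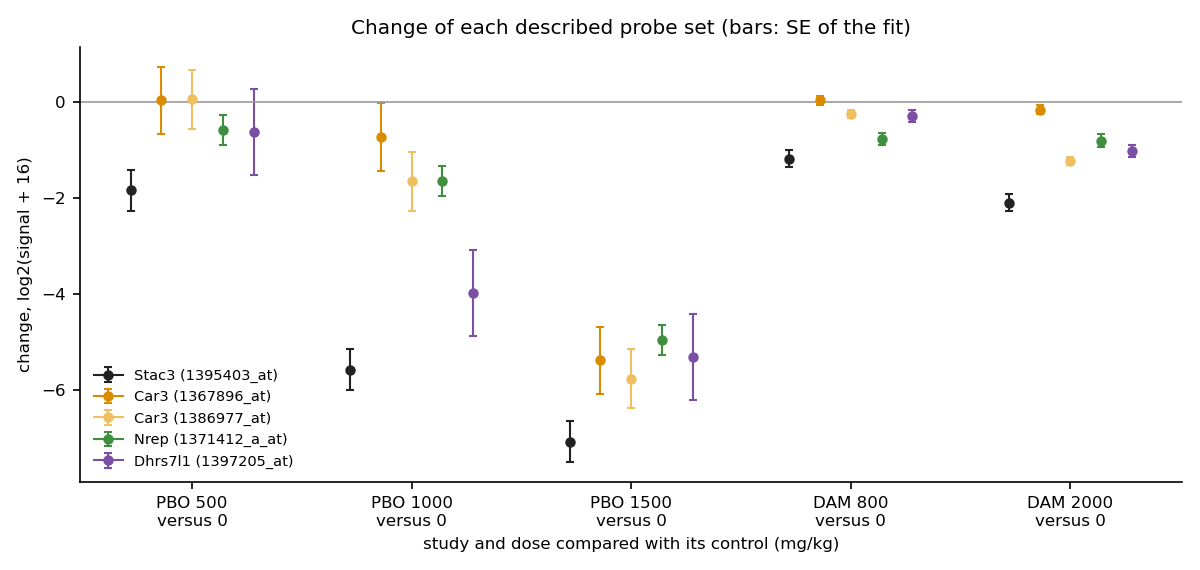
Change of each probe set from its control (vertical axis, log2(signal + 16)) in the 5 comparisons with a control (horizontal axis), with bars of 1 SE of the fit. Changes at PBO 1500 lie between -7.06 and -4.95, and those at DAM 2000 between -2.09 and -0.16.

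Levels of muscle and other cell markers were set beside these values. These and the later gene lists were chosen with earlier results of these data known, which limits what their counts can show. Of 14 skeletal muscle genes, 13 had signals between 1.16 and 183 on all PBO arrays and between 0.642 and 116 on all DAM arrays. The creatine kinase Ckm, for instance, lay between 5.31 and 130 in the PBO study. The remaining one, Myh1, had signals of 6598 to 23235 and 11198 to 13723 in the PBO and DAM studies; its probe set name ends in _x_at, the platform's mark for probes that can bind other transcripts. Among 14 genes of muscle excitation-contraction coupling, the process Stac3 is known for, 5 passed the PBO filter and 4 the DAM filter. None passed the limma threshold at PBO 1500 or DAM 2000, where 1 and 0 had an unadjusted p under 0.05. Their median changes were -0.46 (-0.28 without PBO 1500 replicate 3) and -0.03, against -0.08 and -0.04 over all probe sets. Summed over the 14 genes the signals were 1564 to 1777 in PBO controls and 1048 to 1661 at PBO 1500. Asph made up much of that sum, at 464 to 1107 over the PBO arrays. It was also the gene with an unadjusted p under 0.05 at PBO 1500, and its change of -0.46 is the median given. The calcium release channel gene Ryr1 was at most 114 on any PBO array.

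Markers of some liver cell types moved with PBO 1500, where 9.26% of all probe sets fell. Macrophage genes summed to 18259 to 20992 in controls and 3301 to 15149 at PBO 1500, and 3 of 9 fell. Their median change was -1.08, and -0.65 without PBO 1500 replicate 3. Erythroid genes summed to 21717 to 23029 and 4375 to 10037, and 3 of 4 fell. For stellate cells and fibroblasts the sums were 10612 to 12993 and 4622 to 10551, and 3 of 11 fell. The median change of these genes was -0.26. Without PBO 1500 replicate 3 it was -0.07, with 3 genes lower and 1 higher. Hepatocyte genes summed to 297371 to 379724 and 241452 to 317810, and 3 of 8 fell. Fat cell markers, which matter for Car3, summed to 31028 to 38217 and 20252 to 31696. Of 6 tested, 1 was higher and 2 lower (1 lower after median scaling or quantile normalization). Most of the sum was Pck1, at 16625 to 35084 on PBO arrays, so the sum mainly follows that gene. Pck1 was also 1 of the 2 lower genes, with -0.55 (limma adjusted p = 0.0365). The other lower gene was Cfd (-2.01) and the higher one Lpl (2.24). Adiponectin (Adipoq), the defining one, was at most 64.2 on any PBO array. Endothelial genes fell in 2 of 8 cases (1 without PBO 1500 replicate 3). Of 3 tested bile duct genes only Epcam rose, by 2.06, where 8.08% of all probe sets rose. Spp1 changed by 0.51 (limma adjusted p = 0.417) and Krt19 by -0.31 (limma adjusted p = 0.536), and neither passed. The sums over 5 bile duct genes were 1135 to 1436 and 3506 to 4277. At DAM 2000, where 6.11% of all probe sets fell, the macrophage sums were 13446 to 16632 against 17865 to 19082 in controls (1 of 9 fell). The stellate cell and fibroblast sums were 9797 to 9978 against 11535 to 13352 (3 of 11 fell, 2 after median scaling). The part of these markers in the values of the 4 genes was not tested.

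At PBO 1500, 8.08% of all probe sets rose and 9.26% fell, and at DAM 2000 6.22% rose and 6.11% fell, which are the shares to read the counts of the following lists against. Among 8 tested carbonic anhydrases other than Car3, 1 rose and 3 fell at PBO 1500 by limma: Car14, a membrane-bound form, changed by -1.52 ± 0.30 (adjusted p = 0.00441), Car11, a catalytically inactive relative, by -1.80 ± 0.43 (adjusted p = 0.0128), and the cytosolic Car2 by 1.01 ± 0.27 (adjusted p = 0.0220). Car9, the other that fell, is named for completeness. The median of the family was -0.52 (-0.33 without PBO 1500 replicate 3), and 2 rose after median scaling. At DAM 2000, 1 of 9 rose, Car2 by 1.17 ± 0.17 (adjusted p = 6.13e-04), and 2 fell by limma, Car1 with -1.66 ± 0.27 (adjusted p = 0.00148) and Car14 with -0.56 ± 0.13 (adjusted p = 0.0117, but 0.0546 after median scaling).

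Of 31 tested short-chain dehydrogenases other than Dhrs7l1, 4 rose and 6 fell at PBO 1500, with a median change of 0.06 (0.04 without PBO 1500 replicate 3). The carbonyl reductase Cbr1 rose by 2.01 ± 0.26 (limma adjusted p = 2.48e-04) and Decr1, which acts in fatty acid oxidation, by 0.87 ± 0.10 (limma adjusted p = 1.32e-04). The glucocorticoid-activating Hsd11b1 had a change of -1.12 ± 0.20 (limma adjusted p = 0.00205). At DAM 2000, 10 rose and 2 fell with a median of 0.12. Hsd17b6, a steroid and retinol dehydrogenase, changed by -2.12 ± 0.14 (limma adjusted p = 1.89e-06), Decr1 by 0.59 ± 0.08 (limma adjusted p = 3.47e-04) and Hsd17b2, which inactivates sex steroids, by 0.69 ± 0.10 (limma adjusted p = 5.66e-04). Median scaling gave 6 and 5 in place of 4 and 6 at PBO 1500, and 10 and 1 at DAM 2000.

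In the TGF-beta pathway, beside which Nrep was placed, 3 of 17 genes fell at PBO 1500 and none rose. They were the matrix protein Tgfbi (-0.99 ± 0.15, limma adjusted p = 6.02e-04), the receptor Tgfbr1 (-0.65 ± 0.15, limma adjusted p = 0.00879) and the inhibitor Smad7 (-1.00 ± 0.25, limma adjusted p = 0.0159). Without PBO 1500 replicate 3 the count was 5. At DAM 2000 also 3 of 17 fell: Smad3, a signal transducer, with -0.81 ± 0.17 (limma adjusted p = 0.00717), its repressor Skil with -0.73 ± 0.15 (limma adjusted p = 0.00797) and Tgfbi with -0.34 ± 0.08 (limma adjusted p = 0.0175, but 0.213 after median scaling). The medians were -0.36 and -0.27. For comparison, 17.3% of all probe sets passed in either direction at PBO 1500 and 12.3% at DAM 2000.

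**Figure D4:**
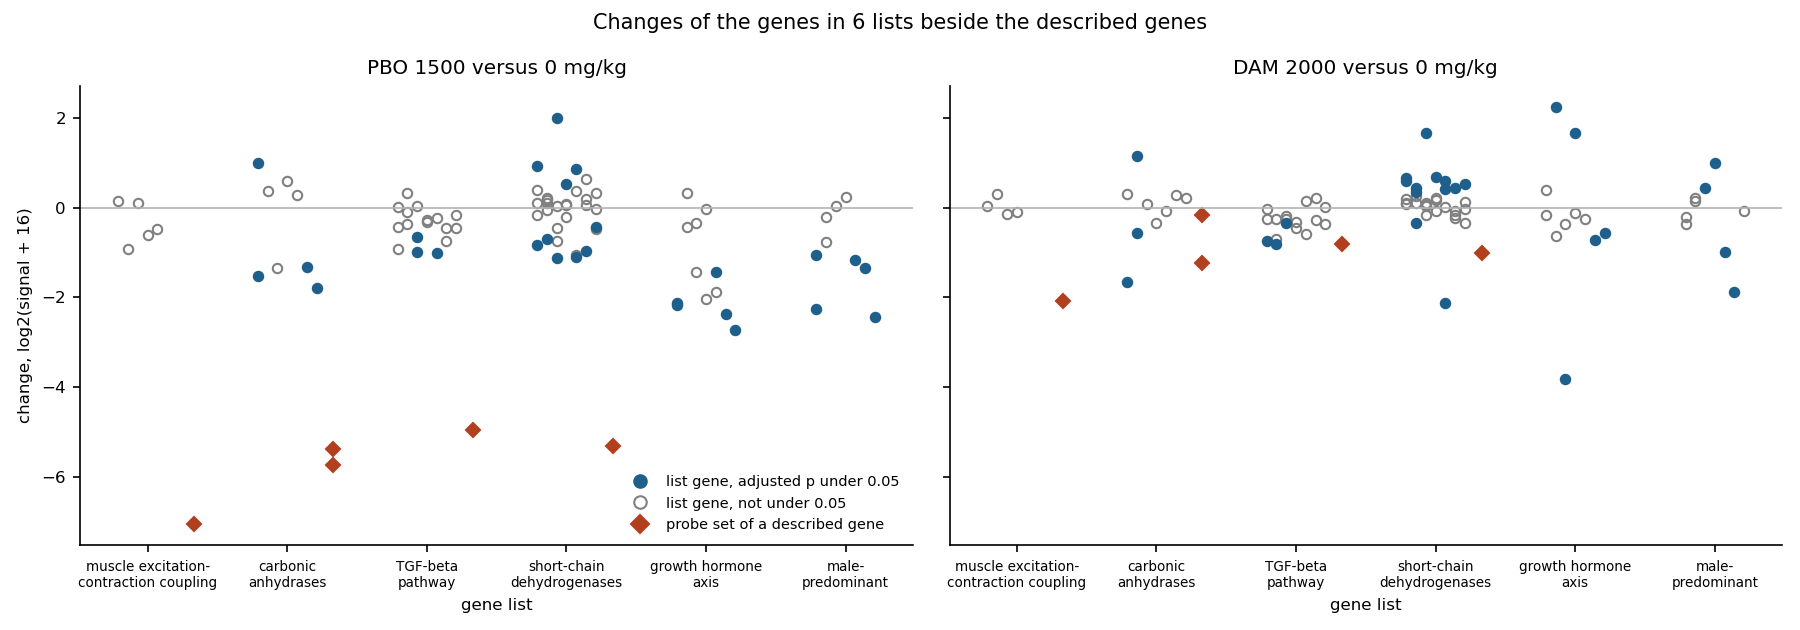
Change (vertical axis, log2(signal + 16)) of each tested gene of 6 lists (horizontal axis) at PBO 1500 (left) and DAM 2000 (right), with filled circles for limma adjusted p under 0.05 and diamonds for the 5 described probe sets, each beside the list of its family or process. At PBO 1500 the diamonds lie at -4.95 or lower, as the choice of the genes fixed, and the lowest circle is Igfbp3 at -2.72. At DAM 2000 Bcl6, at -3.83 in the growth hormone list, and Hsd17b6, at -2.12 among the short-chain dehydrogenases, are lower than every diamond.

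The growth hormone and sex-dependent lists were included because hepatic Car3 is known to be higher in males. At PBO 1500, 5 of 12 genes of the growth hormone axis fell and none rose, with a median of -1.65. Without PBO 1500 replicate 3, 4 fell and the median was -0.96. The binding protein Igfbp3 changed by -2.72 ± 0.35 (limma adjusted p = 2.59e-04), the growth hormone receptor Ghr by -2.18 ± 0.41 (limma adjusted p = 0.00296) and Igfals, which carries IGF1 in plasma, by -2.37 ± 0.47 (limma adjusted p = 0.00446). At DAM 2000, 2 of 11 rose and 3 fell (5 after quantile normalization). The STAT5 antagonist Bcl6 changed by -3.83 ± 0.38 (limma adjusted p = 3.75e-05), Cish, an inhibitor of growth hormone signalling, by 2.26 ± 0.29 (limma adjusted p = 2.60e-04) and Igfbp3 by -0.57 ± 0.11 (limma adjusted p = 0.00458).

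Of 9 male-predominant genes 5 fell and none rose at PBO 1500 (1 rose after median scaling), where 9.26% of all probe sets fell and 8.08% rose, and 2 rose and 2 fell at DAM 2000 (3 fell after quantile normalization). The transporter gene Ust5r changed by -2.44 ± 0.21 (limma adjusted p = 1.37e-05), Mup5 by -1.16 ± 0.13 (limma adjusted p = 7.47e-05) and the male-specific cytochrome Cyp2c11 by -2.26 ± 0.35 (limma adjusted p = 8.79e-04) at PBO 1500. At DAM 2000 Cyp3a18 rose by 1.00 ± 0.07 (limma adjusted p = 2.75e-06), while Obp3 changed by -1.88 ± 0.18 (limma adjusted p = 3.04e-05) and Mup5 by -0.99 ± 0.15 (limma adjusted p = 0.00113). Of 6 female-predominant genes, Sult2a2, a steroid sulfotransferase, rose by 4.90 ± 1.16 at PBO 1500 (limma adjusted p = 0.0118), the only one to pass there except that 2 passed after median scaling or without PBO 1500 replicate 3. At DAM 2000, 2 of 6 rose and none fell, with a median of 0.07, where 6.22% of all probe sets rose. Sult2a2 rose by 7.83 ± 0.35 (limma adjusted p = 7.29e-08) and the prolactin receptor Prlr by 2.75 ± 0.20 (limma adjusted p = 4.19e-06). Cyp2c12, also on this list, changed by -1.05 and did not pass (limma adjusted p = 0.0833).

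For each gene the 3 most similar of 10666 genes were found by Pearson correlation of log2(signal + 16) over the 12 PBO arrays. The arrays share the 4 doses, so these r values carry no p. Nearest to Stac3 were Ttyh2 (r = 0.956), Csrp1 (r = 0.949) and Steap4 (r = 0.948). Car3, by 1367896_at, was followed by Sult1c3 (r = 0.990), Dpys (r = 0.984) and Afm (r = 0.984). Nrep was followed by Snx24 (r = 0.983), Igf1 by probe set 1382599_at (r = 0.982) and Hao2 (r = 0.981), and Dhrs7l1 by Stmn4 (r = 0.948), Hsd11b1 (r = 0.943) and R3hcc1 (r = 0.940). Among the 4 genes themselves r was highest for Car3 with Nrep, at 0.953, and lowest for Car3 with Dhrs7l1, at 0.567.

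The changes of these 12 genes at PBO 1500 ran from -2.96 for Hao2, a peroxisomal hydroxy acid oxidase, to -0.76 for Ttyh2, a membrane channel protein. The DAM arrays did not enter this choice. At DAM 2000, 5 of the 12 fell by limma, where 6.11% of all probe sets fell. They were Csrp1, a LIM domain protein, with -1.77 (adjusted p = 6.61e-06), Hao2 with -1.08 (adjusted p = 2.45e-05), the growth factor Igf1 with -0.80 (adjusted p = 2.94e-05), Ttyh2 with -0.37 (adjusted p = 0.00795) and the plasma vitamin E carrier Afm with -0.31 (adjusted p = 0.00844). The other 7 did not pass. Csrp1, Igf1 and Hao2 also fell at DAM 800, where 1.62% of all probe sets fell. Their changes were -0.79, -0.37 and -0.40 (limma adjusted p = 0.00682, 0.0195 and 0.0442). Another Igf1 probe set, 1370333_a_at, which stands for the gene in the growth hormone list, did not pass: it changed by -0.25 at DAM 2000 (limma adjusted p = 0.0528) and -0.08 at DAM 800 (limma adjusted p = 0.697). Among the 7, Hsd11b1, near Dhrs7l1, changed by 0.11 (limma adjusted p = 0.413) and Dpys, a pyrimidine-degrading enzyme near Car3, by -0.11 (limma adjusted p = 0.337).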

How the data were processed

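The values are linear MAS5 intensity signals that the authors deposited for each probe set; the tool comes from the submitters' processing notes, with no version stated. After a trim of 2% at both ends, the mean signal was 500.2 to 500.3 on each of the 21 arrays. Groups, doses and replicate numbers came from the labels. Of 31099 probe sets, 57 array controls were left out, and gene names came from the platform annotation, updated through Entrez identifiers with RefSeq. The members and the gene lists were chosen with earlier results of these data known, and the DAM comparisons were not used to choose the members.

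Values were transformed as log2(signal + 16), which understates the change of dim genes, without further normalization, and probe sets above the 40th percentile of the mean were kept. Each study was fitted with all its arrays with limma 3.58.1 in R 4.3.3 (lmFit, eBayes with trend), with Benjamini-Hochberg adjustment over 18625 probe sets and a threshold of 0.05. The fit was tested on simulated data. Deviations of replicates with the same number in different groups correlated at most at 0.10, and no pairing was used. A gene of a list was represented by its brightest tested probe set, and up to 3 genes with the smallest adjusted p were named. Car9, Dhrs7 and Cyp2c12 were named after their values were seen, as were marker genes beside the summed levels. Alternatives were other pseudocounts, filters and normalizations, no trend, a replicate block, fewer arrays and each array of the compared groups left out. Fits of the lists without PBO 1500 replicate 3 and under other scalings were added after the data were seen. Python 3.11.15 and matplotlib 3.10.9 drew the figures and searched the promoters.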

Additional observations from a re-analysis of the deposited data

How the results depend on the processing

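Each called DAM change of the 4 genes kept its direction in every alternative run. Values near 0 changed sign: Car3 1367896_at to -0.04 at PBO 500 and at DAM 800 under quantile normalization, and the DAM step of Nrep to 0.01 under median scaling. With single arrays left out these also took either sign, as did Car3 1386977_at at PBO 500 (-0.15 to 0.21). Of the PBO changes 374 recomputed values moved by less than the spread between animals and 1 moved further, Stac3 at PBO 1500, to -6.49 with a pseudocount of 64. Of the tested DAM changes 212 kept their side of the threshold, 10 lost it and 3 gained it; where an alternative changed a call, the cause was not tested. Calls lost were the step of -0.91 for Stac3 with no filter, the steps of -0.91 for Stac3 and -0.72 for Dhrs7l1 without the intensity trend, and the -0.76 of Nrep at DAM 800 without the trend. Calls gained were Car3 1367896_at under quantile normalization, with -0.25 at DAM 2000 and -0.21 from DAM 800 to 2000, and the -0.28 of Dhrs7l1 at DAM 800 in a fit of only those groups. When each array of the compared groups was left out in turn, the step from DAM 800 to 2000 ranged from -1.04 to -0.69 for Stac3 and from -0.90 to -0.58 for Dhrs7l1.

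Counts of called probe sets moved more. Without the intensity trend they were 45 at PBO 500, 300 at PBO 1000, 54 from PBO 1000 to 1500, 235 at DAM 800, 1501 at DAM 2000 and 60 from DAM 800 to 2000, in place of 89, 581, 224, 705, 2296 and 207. Fits restricted to the compared groups gave 269, 1370 and 1550 at PBO 500, 1000 and 1500 (the last in place of 3228), and 0 from PBO 1000 to 1500, where the 60th percentile filter gave 342. Without PBO 1500 replicate 3 the counts were 371 at PBO 500 and 1448 at PBO 1000. Only arrays of the compared groups were left out in turn, apart from that fit without PBO 1500 replicate 3, which gave the upper ends at PBO 500 and PBO 1000. The ranges were 52 to 371 at PBO 500, 255 to 1448 at PBO 1000, 2032 to 3321 at PBO 1500, 0 to 1 from PBO 500 to 1000 (in place of 2), 13 to 924 from PBO 1000 to 1500, 382 to 575 at DAM 800, 1492 to 1882 at DAM 2000 and 121 to 198 from DAM 800 to 2000. Highest and lowest came from leaving out PBO 1500 replicate 2 and PBO 1000 replicate 2 for the step from PBO 1000 to 1500.

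With the replicate number as a block the count from PBO 500 to 1000 was 4, and no call of the 4 genes changed. Deviations of same-numbered animals correlated at -0.07 to 0.03 in the PBO study and -0.06 to 0.10 in the DAM study. Between the DAM control and DAM 2000 they were all positive, at 0.04, 0.07 and 0.10. Whether same-numbered animals shared a batch was not tested. Limits of the data are 3 animals per group, low signals at PBO 1500, and 1 probe set for each gene except Car3. At that dose Stac3 was near the dim end of the array. Car3 1386977_at in replicate 3 (77.7) and Dhrs7l1 in replicates 1 and 2 (111.5 and 121.4) lay below or near the PBO array medians of 94.3 to 114.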
